A study of Mus musculus with 30 samples.

Results

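Chemokine ligands and chemokine receptors were examined in white adipose tissue and heart of mice. They comprised 61 of the 36558 gene IDs in the deposited table, chosen as protein-coding genes whose symbol is Ccl, Cxcl, Cx3cl, Ccr, Cxcr or Cx3cr followed by a number. Ligands made up 43 of them and receptors 18. Assembled chromosomes carry 54 of the genes, and 7 IDs are copies of Ccl19, Ccl21 or Ccl27 on unplaced scaffolds. Another 3 IDs matched by symbol but are not annotated as protein-coding (Cxcl11, Ccl19-ps1 and Ccl19-ps3) and were left out.

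Chemokines are small secreted proteins that steer leukocytes along concentration gradients, and the receptors are G protein-coupled receptors on the cells that migrate. Inflammatory ligands such as Ccl2 recruit monocytes and other leukocytes from blood, whereas homeostatic ligands such as Cxcl12, Ccl19 and Ccl21 position cells in resting tissue and in lymphoid organs. In obese adipose tissue, recruitment of monocytes through Ccr2, the receptor of Ccl2 and Ccl7, is a well-known source of macrophages.

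All animals were male C57BL/6J mice that had been given an AAV8 vector encoding F11, the gene of coagulation factor XI, or green fluorescent protein (GFP). Every group was on high-fat diet for 7 weeks and received l-NAME, which blocks nitric oxide synthesis, and tissues were taken at 15 weeks of age, so no group without vector or on another diet was present. The libraries were 8 from F11 adipose tissue, 8 from GFP adipose tissue, 7 from F11 hearts and 6 from GFP hearts. The labels give neither the adipose depot, the vector's promoter nor whether each library is a separate animal, so p-values measure only the spread between these samples, which may be technical in part.

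The total estimated count, in units of 1e6, was 16.76 to 26.33 in F11 adipose libraries, 15.95 to 22.53 in GFP adipose libraries, 28.06 to 33.02 in F11 hearts and 25.75 to 30.59 in GFP hearts. F11 itself, read as a check of the labels, ranged from 0.382 to 11.9 CPM (median 4.33) in F11 adipose tissue and from 0 to 3.46 CPM (median 0.354) in GFP adipose tissue (two-sided exact permutation test, p = 0.002953). Heart held 3 counts of F11 in all F11 libraries and 13 in all GFP libraries, which gave no check there. Adipocyte markers summed to 10140 to 17320 CPM in adipose tissue, and cardiomyocyte markers to 51810 to 69010 CPM in heart. Some adipose libraries held transcripts of other tissues: L142 (F11) had 3283 CPM over 3 epididymal genes, L140 (GFP) had 5332 CPM over 5 cardiomyocyte genes, and hepatocyte genes summed to 3048 CPM in L145 and 1672 CPM in L146 (both F11) and to 3257 CPM in L136 and 927 CPM in L137 (both GFP).

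Levels are given as CPM, counts per 1e6 after TMM scaling of all 29 libraries together, and genes are ranked by CPM per kilobase of their longest transcript. In adipose tissue 11 of the 61 genes averaged 10 CPM or more and 31 averaged 1 CPM or more, whereas in heart the numbers were 4 and 21. The summed level of all 61 genes was 546.8 to 1384 CPM (median 943.8) in adipose libraries and 298 to 394.9 CPM (median 348.4) in heart libraries, with no overlap. No count was found in any library of either tissue for Ccl20, a ligand of Ccr6. Cxcr1 and Ccl27b had no count in heart and 4 and 2 counts in adipose tissue, and Ccl26 had none in adipose tissue and 2 in heart.

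**Figure D1:**
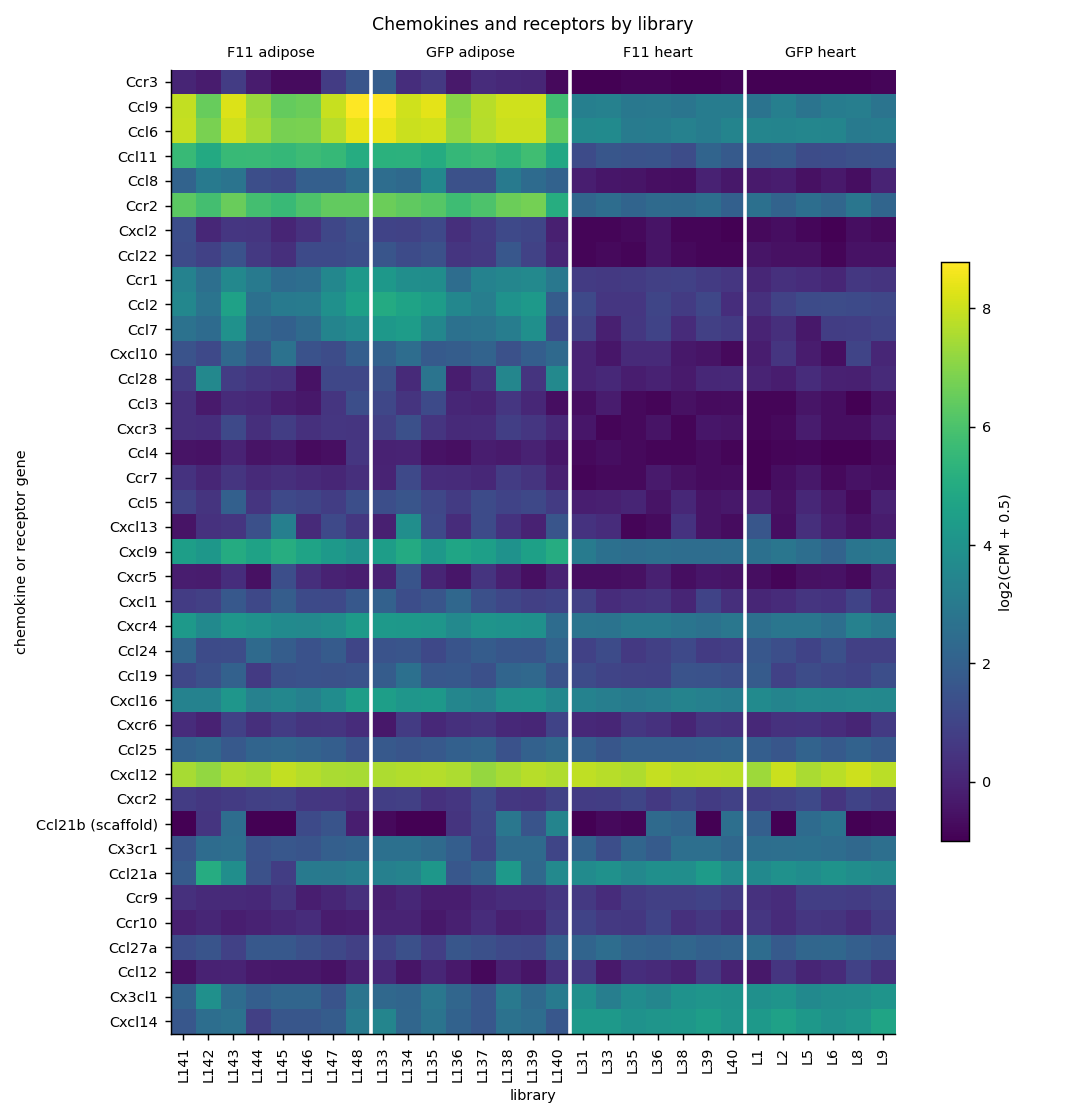
Level of 39 of the 40 members that passed the filter of the fit over both tissues, as log2(CPM + 0.5) in each library (columns, by group), with rows ordered by the tissue difference. Ccl6, Ccl9 and Cxcl12 are the brightest rows in adipose tissue and Cxcl12 in heart. Cxcl14 and Cx3cl1 at the bottom are brighter in heart, and the Ccl21b copy on a scaffold switches between dark and bright among libraries of 1 group.

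Ccl6 and Ccl9, CC ligands of mice that act through Ccr1, led the adipose ranking with 146.3 and 75.3 CPM per kilobase. They were followed by Ccl11, the eosinophil-attracting ligand of Ccr3, with 39.1 CPM per kilobase, and by Cxcl12, the ligand of Cxcr4, with 33.6 CPM per kilobase. The next places were held by Ccl2 (17.9), Ccr2 (12.8), Ccl7 (11.5), Ccl8 (9.13) and Cxcr4 (8.21), all in CPM per kilobase, with Ccl21a between Ccl7 and Ccl8. Heart had another order, with Cxcl12 at 38.6 CPM per kilobase well ahead of Ccl21a (15.9), the Ccr7 ligand made by lymphatic vessels, and Cxcl14 (10.2), a ligand of many epithelia and stromal cells. Ccl6 (6.67), Ccl27a (4.62), Cx3cl1 (4.19), Cxcr4 (3.70), Cxcl16 (3.70), Ccl25 (3.13) and Ccl9 (2.55) completed the first 10 in heart, again in CPM per kilobase. Cxcr4 was the receptor with the highest level per kilobase in heart, and Ccr2 in adipose tissue.

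The comparison of adipose tissue with heart, averaged over both vectors, asked where the ligands and receptors are expressed. Of the 40 members tested, 27 were higher and 7 lower in adipose tissue at an edgeR adjusted p under 0.05. Over all 16526 genes tested the shares were 47.3% higher and 39.3% lower, against 67.5% and 17.5% of the members. The members' median log2 fold change was 2.08 and that of all genes 0.12. Among ligands 19 of 27 were higher and 5 lower, and among receptors 8 of 13 were higher and 2 lower. Libraries of the tissues did not overlap for 17 members that were higher in adipose tissue and for 1 that was lower, where 25.5% and 24.3% of all genes did so. Any difference in preparation between the tissues cannot be told apart from tissue, and neither can more cells of a type from more RNA per cell.

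Among members of 1 CPM or more, Ccl9 and Ccl6 differed most. Ccl9 ranged from 55.9 to 438 CPM (median 242) in adipose tissue and from 6.11 to 9.44 CPM (median 8.05) in heart, and its log2 fold change was 4.88 (SE 0.29, edgeR adjusted p = 4.267e-15). Ccl6 ranged from 80.4 to 354 CPM (median 225) in adipose tissue and from 7.46 to 12.4 CPM (median 10.1) in heart (log2 4.45, SE 0.22). For both genes the lowest adipose library, L140, lay well above every heart library.

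Ccl9 and Ccl6 are neighbours in a group of 5 ligand genes on chromosome 11 (Ccl5, Ccl9, Ccl6, Ccl3 and Ccl4, 83525778 to 83664683, GRCm38). Across the 16 adipose libraries their levels went together more closely than those of any other pair of members (r = 0.994 on log2(CPM + 0.5) with vector means removed, a description over libraries that share depth and composition). The 250 bases before each start, from RefSeq (GRCm38.p6, minus strand, 5′ to 3′), are shown because this pair leads the adipose ranking. Capitals mark runs of 10 or more bases found in both.
Ccl6 chr11:83593088-83593337: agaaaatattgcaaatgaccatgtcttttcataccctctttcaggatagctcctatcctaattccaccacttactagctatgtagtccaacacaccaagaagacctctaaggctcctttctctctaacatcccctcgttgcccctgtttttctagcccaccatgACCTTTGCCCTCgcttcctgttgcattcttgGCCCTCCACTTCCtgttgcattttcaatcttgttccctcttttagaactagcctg
Ccl9 chr11:83578637-83578886: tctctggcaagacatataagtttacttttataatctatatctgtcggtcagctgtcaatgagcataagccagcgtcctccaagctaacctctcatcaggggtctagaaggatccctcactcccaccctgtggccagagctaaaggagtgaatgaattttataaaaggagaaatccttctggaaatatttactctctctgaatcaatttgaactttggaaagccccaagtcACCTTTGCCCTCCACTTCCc
The run ACCTTTGCCCTCCACTTCC of 19 bases lay at -20 to -2 of the Ccl9 start. The Ccl6 window held its first 12 bases at -86 to -75 and its last 13 bases at -55 to -43, in separate places.

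Promoters were found in the RefSeq table for 40 of the 54 members on chromosomes, in 47 entries. Searched on both strands of the 250-base windows, the NF-kB motif occurred in 10 of the 47 entries (21.3%, against 7.25% of 32851 promoters), among them Cxcl1, Cxcl2, Cxcl10, Ccr1 and Ccl9. The IRF motif, a pair of GAAA blocks with 2 bases of any kind between them, occurred in 3 entries (6.38%, against 2.98%), the STAT motif TTCNNNGAA in 4 (8.51%, against 7.02%), the PU.1 motif GAGGAA in 16 (34.0%, against 23.3%) and TATAAA in 12 (25.5%, against 12.4%). In the Ccl9 window an NF-kB match lay at -35 to -26 on the reverse strand, and a reverse TATAAA match at -94 to -89 overlapped a forward one at -92 to -87. These counts describe letters in short windows and not binding.

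The other CC ligands of adipose tissue were spread over the second group on chromosome 11, which holds Ccl2, Ccl7, Ccl11, Ccl12, Ccl8 and Ccl1 (82035571 to 82305690). Ccl11 ranged from 28.5 to 54.4 CPM (median 45.0) in adipose tissue and from 1.82 to 3.999 CPM (median 2.30) in heart, with a log2 fold change of 4.12 (SE 0.13, edgeR adjusted p = 7.389e-22). Ccl8, a ligand of monocyte and T cell receptors, ranged from 1.75 to 11.2 CPM in adipose tissue and from 0.139 to 0.483 CPM in heart (log2 4.004, SE 0.30). Ccl2 and Ccl7, the Ccr2 ligands, differed by log2 3.38 (SE 0.30) and 3.22 (SE 0.34). Members of this group did not all rise with them. Under TMM Ccl12 was lower in adipose tissue, with 0.082 to 0.796 CPM there and 0.270 to 1.36 CPM in heart (log2 -0.97, SE 0.26). With libraries scaled by their totals its log2 fold change was -0.02, so the lower level depended on scaling. Ccl12 averaged below 1 CPM in both tissues (0.360 CPM in adipose tissue and 0.699 CPM in heart). Ccl1 had 4 counts in all adipose libraries and 1 in all heart libraries.

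Among receptors, Ccr2 ranged from 33.9 to 107 CPM (median 75.7) in adipose tissue and from 3.46 to 6.65 CPM (median 4.63) in heart (log2 3.97, SE 0.16, edgeR adjusted p = 2.164e-19). Ccr1, the receptor of Ccl6, Ccl9 and other CC ligands, ranged from 4.91 to 18.1 CPM in adipose tissue and from 0.539 to 1.34 CPM in heart (log2 3.45, SE 0.21). Both receptors lie on chromosome 9 near Ccr9, Cxcr6, Ccr1l1 and Ccr3. Ccr3, the eosinophil receptor of Ccl11, was named after its values were seen, with 0.0995 to 3.15 CPM in adipose tissue and 0 to 0.0517 CPM in heart. Cxcr6, the receptor of Cxcl16, did not pass the test between tissues (log2 0.14, SE 0.20).

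Of lower-level ligands, Cxcl2, which attracts neutrophils, ranged from 0.398 to 2.16 CPM in adipose tissue and from 0 to 0.207 CPM in heart (log2 3.86, SE 0.36). Ccl22, a dendritic cell ligand of Ccr4, ranged from 0.547 to 2.65 CPM in adipose tissue and from 0.0444 to 0.225 CPM in heart (log2 3.71, SE 0.28). Macrophage markers moved with these differences, with 12 of 12 higher in adipose tissue (median log2 2.35). Their sum was 752.5 to 3841 CPM in adipose libraries and 251.4 to 361.2 CPM in heart libraries, and no macrophage marker was at 0 in either tissue. Some other leukocyte lists moved about as far, with B cell markers 8 of 8 higher (median log2 2.32), mast cell markers 5 of 5 higher (2.19) and T cell markers 5 of 7 higher (2.31). Others moved less. Of neutrophil markers 2 of 3 were higher and 1 lower (1.55), of lymph node markers 2 of 4 were higher (1.09), and of dendritic cell markers 3 of 5 (0.53). The part of these cell types in the members' tissue differences was not tested.

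**Figure D2:**
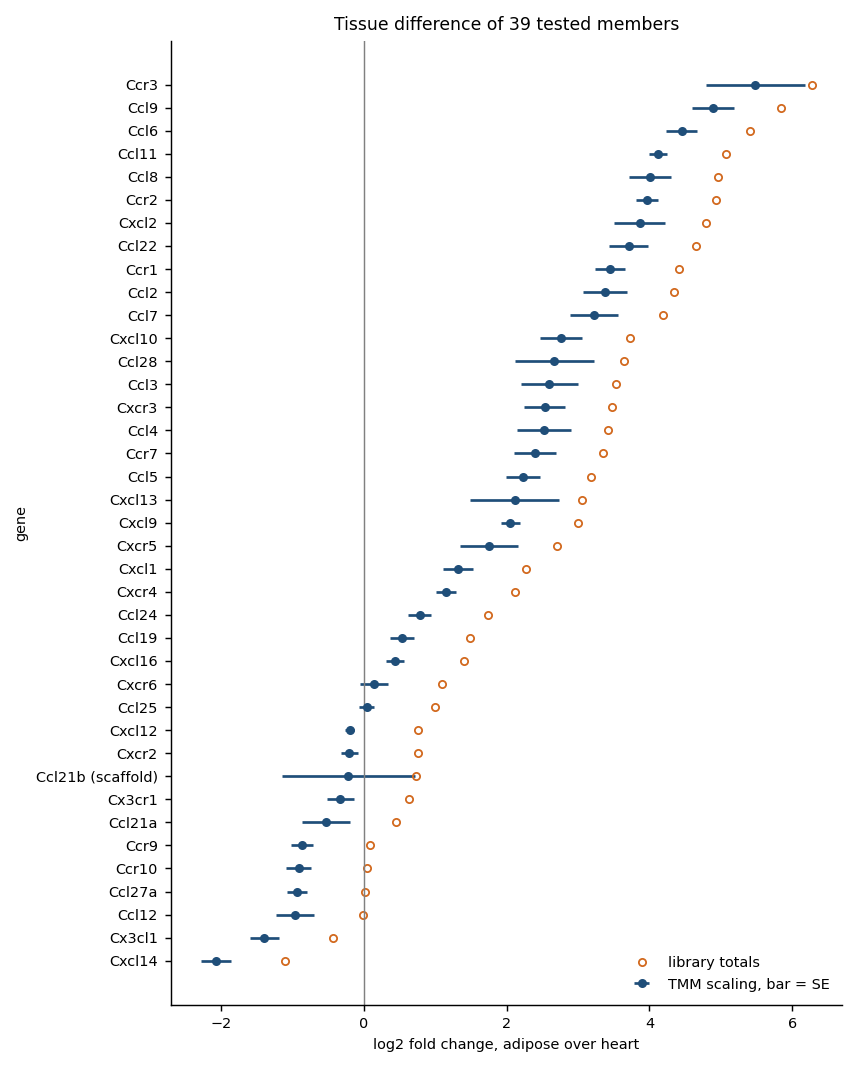
Log2 fold change of adipose tissue over heart for 39 of the 40 tested members (edgeR, filled points with SE bars) and the same with libraries scaled by their totals (open points). With totals every point moves right, and of the genes left of 0 with filled points, Cxcl14 and Cx3cl1 stay clearly left of it.

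Cxcl14 and Cx3cl1 were the members that fell furthest below heart in adipose tissue at 1 CPM or more. Cxcl14 ranged from 1.30 to 10.4 CPM (median 3.94) in adipose tissue and from 14.8 to 25.5 CPM (median 18.0) in heart, without overlap (log2 -2.07, SE 0.21, edgeR adjusted p = 3.645e-10). Cx3cl1, the membrane-bound ligand of Cx3cr1 made by endothelium, ranged from 2.44 to 14.6 CPM (median 4.36) in adipose tissue and from 8.64 to 16.7 CPM (median 14.3) in heart (log2 -1.39, SE 0.20). The 14.6 CPM came from L142, the library with epididymal transcripts, and the next highest adipose value was 7.37 CPM, below every heart library.

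The remaining differences in that direction depended on scaling. Ccl27a, a ligand of Ccr10, had a log2 fold change of -0.93 (SE 0.14), Ccr9, the receptor of Ccl25, of -0.87 (SE 0.16), and Cxcl12 of -0.20 (SE 0.07, edgeR adjusted p = 0.007597). Mitochondrial transcripts took 3.89 to 11.1% of counts in adipose tissue and 31.6 to 34.6% in heart, and scaling by library totals shifted the median of all genes by 0.96 on the log2 scale. With totals 32 members were higher and 2 lower, and Ccl27a (0.02), Ccr9 (0.09) and Cxcl12 (0.76) changed sign, as did Ccr10 (0.04), a receptor below 1 CPM on average in both tissues with a log2 fold change of -0.91 under TMM, while Ccl12 lay at -0.02. Cxcl12 was also positive with totals that leave out mitochondrial transcripts (0.26), and it lost the call in GFP libraries alone (log2 -0.19, adjusted p = 0.077). Cxcl12 ranged from 145.6 to 237 CPM in adipose tissue and from 164 to 263 CPM in heart, and these ranges overlapped widely. Reads of Ccl27a can be shared with Il11ra1, and those of Ccr9 with Lztfl1 and Slc6a20a, which the annotation places on the opposite strand over the same bases; the strand setting of the counting is not given in the sources used here.

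The comparison of F11 with GFP in heart asked which members differ with the vector. Of 29 members tested, 0 were higher and 1 was lower with F11 at an edgeR adjusted p under 0.05. Over all 14684 genes 0.518% were higher and 0.354% lower. The members' median log2 fold change was -0.03 and that of all genes -0.01, and an unadjusted p under 0.05 was reached by 4 of 29 members (13.8%, against 12.5% of all genes).

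The member that fell was Cxcl16, which encodes a transmembrane ligand and scavenger receptor that attracts Cxcr6-bearing T cells (ENSMUSG00000018920, chromosome 11, 70453983 to 70459984, minus strand). It ranged from 7.50 to 9.81 CPM (median 8.64) in F11 hearts and from 10.2 to 12.3 CPM (median 11.4) in GFP hearts. All 7 F11 libraries lay below all 6 GFP libraries, which 0.429% of all genes did in this direction. The means were 8.82 ± 0.817 CPM (SD, n = 7) and 11.35 ± 0.725 CPM (SD, n = 6). The log2 fold change was -0.37 (SE 0.07, edgeR adjusted p = 0.0143), or 0.776-fold. The call held with each library left out in turn, but not in a fit over both tissues together, where the log2 fold change was -0.36 and the adjusted p 0.968. Cxcl16 shares bases on opposite strands with Zmynd15. Its receptor Cxcr6 had 0.509 to 0.994 CPM in F11 hearts and 0.504 to 1.06 CPM in GFP hearts, and its log2 fold change was -0.03 (SE 0.22).

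Cell type markers of heart were set beside this difference. Macrophage markers summed to 251.4 to 339.7 CPM (median 303.4) in F11 hearts and 277.9 to 361.2 CPM (median 324.1) in GFP hearts, with 0 of 12 past the test and 4 of 12 positive. Cardiomyocyte markers summed to 59890 to 69010 CPM in F11 hearts and 51810 to 55630 CPM in GFP hearts, without overlap. Myh6 gave most of that sum, with 38670 to 44790 CPM in F11 hearts and 32160 to 36800 CPM in GFP hearts. Libraries of the vectors overlapped for each of the other markers, Tnnt2, Actc1, Ryr2 and Myl2. Of the list 1 of 5 rose, and the median log2 was 0.097. Mesothelial markers summed to 7.27 to 17.1 CPM in F11 hearts and 16.8 to 28.1 CPM in GFP hearts, with 7 of 7 negative and 0 past the test. Mast cell markers summed to 7.27 to 9.41 CPM in F11 hearts and 7.56 to 11.1 CPM in GFP hearts, and 1 of 3 tested fell. Adipocyte markers summed to 482.5 to 787 CPM in F11 hearts and 494.6 to 743.4 CPM in GFP hearts, with 1 of 5 positive (median log2 -1.10), and of B cell markers 1 of 5 was positive (-0.26), with 0 past the test in either list. The part of these cell types in the Cxcl16 difference was not tested.

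**Figure D3:**
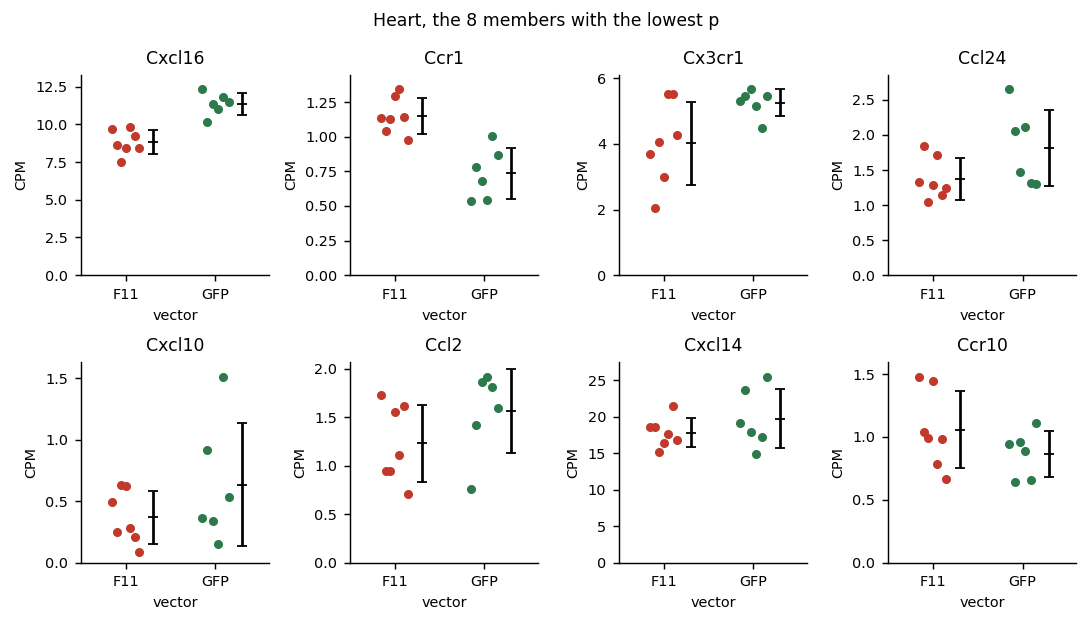
CPM of the 8 members with the lowest p in heart, in each F11 library (red, left) and GFP library (green, right), with the mean and SD beside the points. Cxcl16 separates the vectors without overlap, at 7.50 to 9.81 CPM with F11 and 10.2 to 12.3 CPM with GFP, and Ccr1 overlaps by a single library on each side.

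No other member passed in heart. Ccr1 had the next lowest p, with 0.977 to 1.34 CPM (median 1.14) in F11 hearts and 0.539 to 1.01 CPM (median 0.729) in GFP hearts, a log2 fold change of 0.64 (SE 0.18) and an edgeR adjusted p of 0.107. Each of the 7 F11 libraries exceeded the median of GFP hearts, and the ranges overlapped by a single library on each side. With limma voom and sample weights Ccr1 passed (log2 0.72, adjusted p = 0.0474).

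Cx3cr1, a receptor of resident macrophages, ranged from 2.04 to 5.51 CPM in F11 hearts and from 4.49 to 5.65 CPM in GFP hearts (log2 -0.39, SE 0.18, adjusted p = 0.379). Its annotated span of chromosome 9 covers several other genes, so reads could be shared. Ccl24, an eosinophil attractant, ranged from 1.04 to 1.84 CPM in F11 hearts and from 1.30 to 2.65 CPM in GFP hearts (log2 -0.42, SE 0.20, adjusted p = 0.397). Cxcl10 (log2 -0.79, SE 0.49), Ccl2 (-0.35, SE 0.24), Cxcl14 (-0.15, SE 0.12) and Ccr10 (0.28, SE 0.22) had adjusted p-values of 0.545 to 0.649 and overlapping libraries. Single libraries moved some of these values by over 1.5 times: Cxcl10 was -0.34 without L8 (and -0.285 with limma voom), Cxcl14 was -0.07 without L9 and -0.09 without L2, Ccl24 was -0.27 without L1 and Ccr10 was 0.18 without L31. The ligand with the highest level, Cxcl12, ranged from 193 to 239 CPM in F11 hearts and from 164 to 263 CPM in GFP hearts (log2 0.00, SE 0.09).

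In adipose tissue the same comparison gave no call. Of 38 members tested, 0 passed at an edgeR adjusted p under 0.05, and 0.0% of all 15229 genes did. DESeq2 called 11 genes of the whole table, all higher with F11, and limma voom 0, and neither called a member. An unadjusted p under 0.05 was reached by 1 member (2.63%) and by 638 genes (4.19%). The fold changes of the members lay mostly below 0, with 8 of 38 positive (21.1%, against 49.8% of all genes) and a median log2 of -0.19 (-0.00 for all genes).

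The fold changes of several marker lists lay mostly on 1 side of 0, but 0 markers passed the test in any of those given here. A shift of these lists with the vector was therefore not shown. The macrophage sum was 926.7 to 3841 CPM (median 1666) in F11 adipose tissue and 752.5 to 3639 CPM (median 2154) in GFP adipose tissue, and 0 of 12 were positive (median log2 -0.20). Of B cell markers 0 of 8 were positive (-0.24) and of mast cell markers 1 of 5 (-0.28), whereas 5 of 5 endothelial markers (0.14) and 4 of 4 mural cell markers (0.30) were positive. The macrophage sums of the vectors overlapped over nearly the entire range, and the part of these lists in the members' median was not tested.

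Ccl19, the Ccr7 ligand of T cell zones, was the member with an unadjusted p under 0.05. It ranged from 1.07 to 3.55 CPM (median 2.18) in F11 adipose tissue and from 2.09 to 5.599 CPM (median 2.91) in GFP adipose tissue, with overlap. The log2 fold change was -0.64 (SE 0.24, unadjusted p = 0.0167, edgeR adjusted p = 0.9995), and 1 of 8 F11 libraries lay above the GFP median. Ccl19 shares an annotated span with 4930578G10Rik on the opposite strand.

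**Figure D4:**
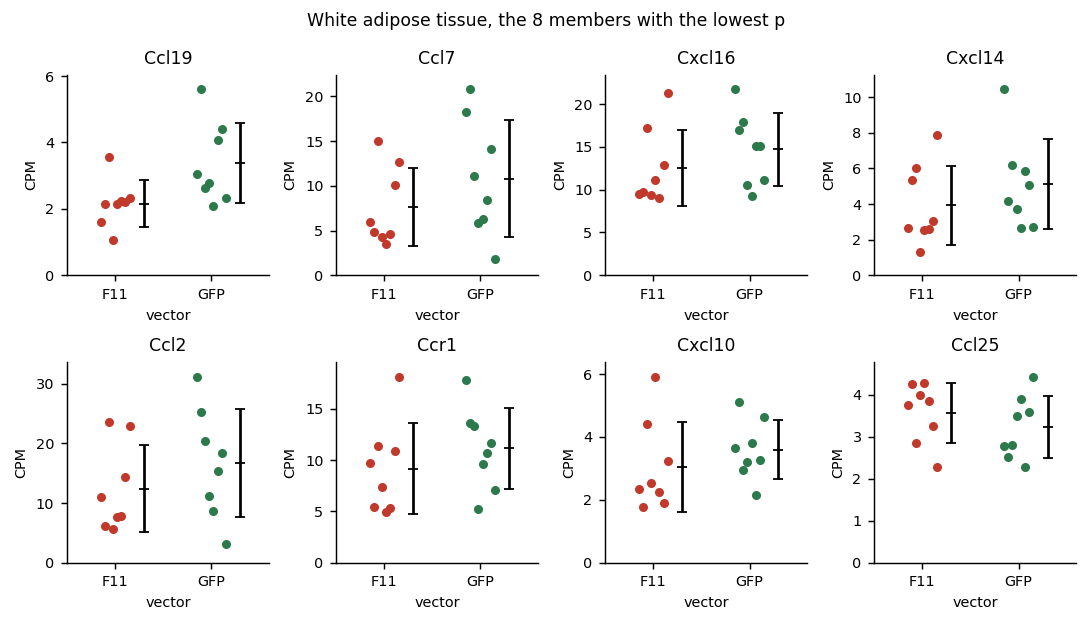
CPM of the 8 members with the lowest p in adipose tissue, in each F11 library (red, left) and GFP library (green, right), with the mean and SD beside the points. In each of the 8 panels the vectors overlap, and the libraries of 1 vector spread widely, as for Ccl2 at 5.55 to 23.6 CPM with F11 and 3.09 to 31.2 CPM with GFP.

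The libraries of Ccl2 and Ccl7 varied widely within each vector. Ccl2 ranged from 5.55 to 23.6 CPM (median 9.46) in F11 adipose tissue and from 3.09 to 31.2 CPM (median 16.9) in GFP adipose tissue (log2 -0.43, SE 0.41). Ccl7 ranged from 3.52 to 15.0 CPM (median 5.43) in F11 adipose tissue and from 1.84 to 20.8 CPM (median 9.76) in GFP adipose tissue (log2 -0.50, SE 0.42). Both lowest values belonged to GFP library L140, the library with cardiomyocyte transcripts. Cxcl16 ranged from 9.06 to 21.3 CPM in F11 adipose tissue and from 9.22 to 21.7 CPM in GFP adipose tissue (log2 -0.23, SE 0.21). For Cxcl14 the log2 fold change was -0.37 (SE 0.35), for Ccr1 -0.28 (SE 0.28), for Cxcl10 -0.24 (SE 0.25) and for Ccl25, which guides thymocytes and gut lymphocytes, 0.16 (SE 0.17), all with an adjusted p of 0.9995. Single libraries moved these values by over 1.5 times. Without L133 the log2 fold change was -0.15 for Cxcl14, -0.16 for Ccr1, -0.25 for Ccl2 and -0.135 for Cxcl16, and without L148 it was -0.59 for Cxcl14, -0.49 for Ccr1 and -0.37 for Cxcl16. Without L134 it was -0.29 for Ccl7 and -0.14 for Cxcl10, without L145 -0.45 and without L142 -0.16 for Cxcl10, without L144 -0.24 for Cxcl14, and without L138 0.10 for Ccl25. Limma voom gave -0.71 for Ccl2, -0.85 for Ccl7, -0.73 for Cxcl14, -0.48 for Ccr1, -0.42 for Cxcl16 and 0.255 for Ccl25. Leaving out L140 and L142, or all 6 libraries with transcripts of other tissues, also gave 0 called members.

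Whether the vector difference itself differed between tissues was tested as an interaction, adipose minus heart. Of 40 members 0 passed, as did 0.0242% of all 16526 genes, and 1 member had an unadjusted p under 0.05 (7.42% of all genes did). That member was Ccr1, with a log2 difference of -0.93 (SE 0.39, unadjusted p = 0.0236, edgeR adjusted p = 0.556). Ccl22 (0.96, SE 0.54), Ccl19 (-0.57, SE 0.33), Ccl24 (0.53, SE 0.32), Ccl4 (-1.26, SE 0.78), Ccr10 (-0.48, SE 0.35), Ccl7 (-0.69, SE 0.63) and Cxcl10 (0.55, SE 0.55) followed on the log2 scale, with adjusted p-values of 0.738 to 0.922. Cxcl10 was 0.09 without L8 and 0.33 without L145, and Ccr10 was -0.23 without L140. Ccl4 reached at most 0.149 CPM and Ccl22 at most 0.225 CPM in any heart library. For Cxcl16, the member called in heart, the interaction was 0.13 (SE 0.25, adjusted p = 0.98), so its vector difference was not shown to differ between tissues.

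The spread of members across libraries was described as the SD of log2(CPM + 0.5) after removing the vector means, over genes that averaged at least 1 CPM. In adipose tissue 31 members had a median SD of 0.49, against 0.22 over 14083 genes, and 30 of 31 lay above the 50th percentile of those genes and 9 (29.0%) above the 90th. In heart 21 members had a median SD of 0.24, against 0.12 over 13466 genes, and 8 (38.1%) lay above the 90th percentile. Of 20 members measured in both tissues, 18 spread more widely in adipose tissue, a share near that of all 12674 genes at 1 CPM in both, of which 84.3% did. Members with low levels carry more counting error, which this comparison with all genes does not remove. Cxcl12 had the smallest SD among adipose members, 0.18, and Cxcl16 the smallest in heart, 0.11.

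The widest members of adipose tissue fell into groups with different patterns. Ccl9 (SD 0.91), Ccl2 (0.90) and Ccl7 (0.90) followed the macrophage marker sum over the 16 adipose libraries. On the log2(CPM + 0.5) scale, Pearson's r and Spearman's rho were 0.987 and 0.965 for Ccl9, 0.901 and 0.915 for Ccl2, and 0.885 and 0.897 for Ccl7. Permutation p-values were 1e-05 for these pairs, the smallest that 100000 resamples can give, except 3e-05 for Pearson's r of Ccl7. The adjusted values were 0.000187 or 0.00042 for Pearson's r and 0.00014 for Spearman's rho, over 56 pairs of 8 members with 7 marker lists.

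Without L140 and L142, the libraries farthest from the median of the macrophage sum, r was 0.983 for Ccl9, 0.848 for Ccl2 and 0.847 for Ccl7. Within F11 libraries r was 0.988, 0.885 and 0.877 in that order of genes, and within GFP libraries 0.985, 0.925 and 0.911. The points share library depth and composition. Ccl27a went the other way, with r = -0.901 against Ccl9. After L140 and L142, the lowest macrophage sums were those of L145, L146 and L136, at 1012, 1057 and 1182 CPM. These libraries hold hepatocyte transcripts and stayed in when L140 and L142 were left out. The part of mixed tissue in the correlations was not tested.

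**Figure D5:**
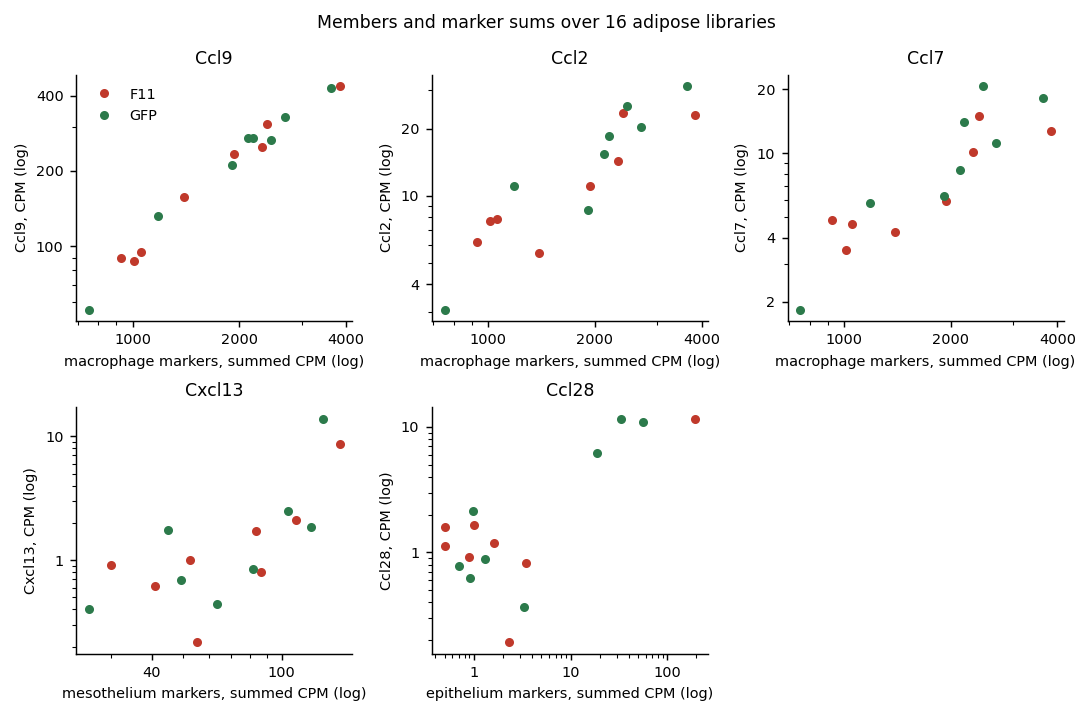
CPM of 5 members against the summed CPM of a marker list in the 16 adipose libraries, F11 in red and GFP in green, on log axes. Ccl9, Ccl2 and Ccl7 rise with the macrophage sum across both vectors. The highest Cxcl13 values lie at high mesothelial sums, and the 4 libraries with most Ccl28 are those with epithelial sums of 18.6 CPM or more.

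Cxcl13, the B cell attractant that acts through Cxcr5 (SD 1.21), went with the mesothelial list. It was highest in GFP library L134 with 13.9 CPM and F11 library L145 with 8.71 CPM, and 0.217 to 2.49 CPM in the other adipose libraries. With the mesothelial sum, Pearson's r was 0.71 and Spearman's rho 0.712 (permutation, adjusted p = 0.0114 and 0.0315), and r was 0.742 without the 2 farthest libraries, L133 and L143. B cell markers were highest in L134 (1064 CPM, of which Ighm gave 1006). Lymph node markers were highest in L145 (9.98 CPM) and L134 (9.78 CPM), against 1.98 to 6.68 CPM elsewhere in adipose tissue. Of that sum Chst4 gave 4.40 CPM in L145, 2.05 CPM in L134 and 4.755 CPM in L137. Cr2, Fcer2a and Ltb were each highest in L145 and L134, but Glycam1 and Madcam1 were at 0 and 0.056 CPM in L145. The part of both lists in the Cxcl13 values was not tested, and Cxcl13 with the B cell sum had r = 0.218 (permutation, adjusted p = 0.641).

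Ccl28, a mucosal ligand of Ccr10 and Ccr3 made by epithelia (SD 1.38), was high in 4 adipose libraries, with 11.5 CPM in L142 (F11) and 11.65 CPM in L140, 10.9 CPM in L138 and 6.22 CPM in L135 (all GFP). The other 12 held 0.193 to 2.16 CPM. Epithelial markers, a list chosen after these values were seen, summed to 195.6, 33.65, 56.2 and 18.6 CPM in those libraries and to 0.497 to 3.44 CPM elsewhere. Since the libraries fall into separate clusters, no pooled correlation is given, and the part of epithelium was not tested.

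Ccl21a (SD 1.19) and a Ccl21b copy on a scaffold (SD 1.54) are annotated as copies of the same Ccr7 ligand. Ccl21a was highest in L142 with 32.6 CPM and lowest in L145 with 1.21 CPM. The scaffold copy was at 0 in 5 adipose libraries and was highest in L140, and in heart it had a count in 9 of 13 libraries and ranged up to 6.19 CPM. Lymphatic endothelial markers, a list of 5 genes chosen after these values were seen, summed to 39.2 to 62.2 CPM in adipose tissue, and their correlation with Ccl21a was weak (Pearson's r 0.158 and Spearman's rho 0.209, permutation, adjusted p = 0.731 and 0.638; r 0.042 without L142 and L148). Among its genes, Mmrn1 was 10.5, 8.18 and 7.46 CPM in L142, L138 and L135, the libraries with most Ccl21a. The same gene was 1.11 to 2.32 CPM in L145, L144, L136 and L141, those with least. The list's other genes overlapped between these libraries. In that order, Flt4 was 16.9, 14.2 and 14.4 CPM against 15.6 to 20.7 CPM. Lyve1 was 25.3, 33.2 and 32.6 CPM against 20.9 to 34.9 CPM. Prox1 was 2.52, 1.92 and 0.769 CPM against 0.1445 to 8.50 CPM, and Reln 7.04, 3.73 and 3.45 CPM against 0.650 to 4.84 CPM. For Prox1 and Reln the overlap came from L145 and L136, with 3048 and 3257 CPM of hepatocyte genes. In L144 and L141 Prox1 was 0.7405 and 0.1445 CPM and Reln 0.7405 and 0.650 CPM, below L142, L138 and L135. Lyve1 was 34.9 and 33.7 CPM there, above those libraries, and Flt4 15.6 and 20.7 CPM. The part of hepatocyte transcripts in these values was not tested. The part of lymphatic vessels in the Ccl21a values was not tested. Summed over the 6 Ccl21 IDs, the level was 1.24 to 33.6 CPM (median 9.34) in adipose tissue and 11.7 to 22.5 CPM (median 15.3) in heart.

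Kallisto divides reads between similar transcripts by estimation. The copy of Ccl21b on chromosome 4, which had 0 to 0.299 CPM in adipose tissue and is not the scaffold copy above, shows how little can separate them. Its GENCODE transcript has 402 bases, which match those of Ccl21a from its base 76 with 2 differences (99.5% identity). Counted from 1 at the first base of the Ccl21b transcript, with the Ccl21a base first, the differences are T84A and C194T. The 30 bases around each, on chromosome 4 and with the differing base in capitals, are shown because only such sites can tell these chromosome 4 copies apart within the shared stretch. The transcript of the scaffold copy was not compared here.
Ccl21a, bases 69 to 98: cagtgatggagggggTcaggactgctgcct
Ccl21b, bases 69 to 98: cagtgatggagggggAcaggactgctgcct
Ccl21a, bases 179 to 208: cggcaatcctgttctCaccccggaagcact
Ccl21b, bases 179 to 208: cggcaatcctgttctTaccccggaagcact
Values of single Ccl21 copies are uncertain where reads can be shared, so the sum is given by vector. Its level did not separate the vectors: 12.2 to 20.4 CPM in F11 hearts and 11.7 to 22.5 CPM in GFP hearts, and 1.24 to 33.6 CPM in F11 adipose tissue and 3.95 to 25.5 CPM in GFP adipose tissue.

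Genes that work with these ligands and receptors were read from a list of 28, all found. It holds atypical and related receptors, G proteins, downstream signalling proteins, the protease Dpp4, and the chemokines Xcl1, Pf4 and Ppbp, whose symbols fall outside the rule. The list was chosen with earlier results known. With F11 in heart, 1 of 25 tested rose and 0 fell, where 0.518% of all genes were higher and 0.354% lower. Cmklr1, the receptor of the chemoattractant chemerin, averaged 29.4 ± 2.84 CPM in F11 hearts and 23.2 ± 2.34 CPM in GFP hearts (SD, n = 7 and 6; log2 0.34, SE 0.07, edgeR adjusted p = 0.0294). In adipose tissue 0 of 27 passed with F11 (0.0% of all genes did), and Cmklr1 had a log2 fold change of 0.22 (SE 0.20) there. The interaction gave 0 of 27 (0.0242% of all genes passed).

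Between tissues 21 of 27 listed genes were higher and 5 lower in adipose tissue (median log2 1.13, against 0.12 for all genes). Over all 16526 genes tested, 47.3% were higher and 39.3% lower. Rgs1, a brake on G protein signalling in leukocytes, averaged 29.3 ± 23.8 CPM in adipose tissue (SD, n = 16) and 0.206 ± 0.127 CPM in heart (SD, n = 13), a log2 fold change of 7.15 (SE 0.62). Dock2, which activates Rac in migrating leukocytes, averaged 80.5 ± 48.9 CPM in adipose tissue and 4.13 ± 0.517 CPM in heart (log2 4.28, SE 0.32). Ackr1, an endothelial scavenger of chemokines, differed by log2 4.60 (SE 0.22). Ackr3, the scavenging receptor of Cxcl12, went the other way, with 35.9 ± 5.09 CPM in adipose tissue and 100.1 ± 11.4 CPM in heart (log2 -1.48, SE 0.07).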

How the data were processed

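Heart and white adipose RNA was sequenced after mRNA library preparation, per the labels' protocols. The authors deposited estimated counts for each gene ID, and the submitters' processing notes name kallisto 0.46 and GRCm38.p6. The annotation, the strand setting and how transcripts were summed are not given there. Of all values, 30.77% were not whole. The labels name 30 libraries and the table held 29; GFP heart L10 was not analysed here. No pair of libraries agreed within sampling noise. Symbols of 35935 IDs came from GENCODE M21.

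Counts were rounded and fitted across all genes with edgeR 4.0.16 in R 4.3.3 (filterByExpr, TMM, robust quasi-likelihood test, two-sided, Benjamini-Hochberg adjusted p under 0.05), in each tissue for F11 over GFP and over both tissues for the tissue contrast and the interaction. Adjusted p-values without another tool's name are edgeR's. Fits were tested on simulated data. CPM are counts per 1000000 TMM-scaled counts over all libraries. Spread and correlations used log2(CPM + 0.5), the latter with 100000 resamples. Library totals limit genes with few counts.

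Alternatives were DESeq2 1.42.0 and its size factors, limma 3.58.1 voom with quality weights, no filter, a stricter filter of 1 CPM, a threshold of 0.1, one fit over both tissues, each vector alone, and leaving out each library. Scaling by library totals and leaving out libraries with over 500 CPM of other tissues' markers were added after seeing the data, as were 3 of the 21 marker lists, epithelium among them. The members and lists were chosen with earlier results of these data known. Named members were every called one up to 12, or the 8 with the lowest p. Up to 10 per direction between tissues at 1 CPM or more, the 10 highest levels and the 8 widest spreads were also named. Ccr3, Ccl12, Ccl1, Cxcr6, Ccl21b, Ccl27b, single marker genes such as Mmrn1 and the members without counts were named after their values were seen. Values of 1 member, counted in the totals, are not reported here.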

Additional observations from a re-analysis of the deposited data

Results flagged for a closer look

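In 12 of 106 combinations of a member with a group (11.3%), the highest or lowest library stood apart from the others by Dixon's criterion, where chance gives about 1 in 20. In F11 adipose tissue L142, the library with epididymal transcripts, stood above the rest for Cx3cl1 at 14.57 CPM (group median 4.05), Ccl28 at 11.47 CPM (1.15) and Ccl21a at 32.59 CPM (7.33). L145 did so for Cxcl13 at 8.711 CPM (0.957) and L148, the library with the highest macrophage sum, for Ccl4 at 0.9501 CPM (0.219). In GFP adipose tissue L134 stood above the rest for Cxcl13 at 13.92 CPM (1.29) and L133 for Cxcl14 at 10.44 CPM (4.63). Among F11 hearts L33 was high for Ccl27a at 5.167 CPM (3.86) and low for Ccl25 at 2.534 CPM (3.42), L39 was high for Ccl21a at 20.25 CPM (13.7), and L36 was high for Ccl22 at 0.2069 CPM (0.0519). Among GFP hearts L6 was low for Ccl22 at 0.04914 CPM (0.188), a level of few counts. For no member did every F11 library of adipose tissue and every F11 library of heart move in opposite directions.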

How the results depend on the processing

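No paired analysis was possible because the groups share no replicate numbers. The call in heart became 2 members with limma voom (Cxcl16 lower, Ccr1 higher) and 0 in the fit over both tissues. It was 1 with each other alternative and each heart library left out. Adipose tissue and the interaction stayed at 0 called members in every alternative run. Between tissues the number called was 34, and stayed within 1.5 times it; the split was 27 higher and 7 lower, 32 and 2 with library totals, 30 and 5 with totals without mitochondrial transcripts, 27 and 9 without L140 and L142, and 20 and 4 with the stricter filter. Signs reversed for Cxcl10 in the interaction with limma voom (log2 -0.053, adjusted p = 0.981), for Ccl27a (0.022), Ccr9 (0.087) and Cxcl12 (0.76) with library totals, and for Cxcl12 (0.26) with totals without mitochondrial transcripts. These shifts come with the scaling itself, which moved the median of all genes by 0.96 and 0.46 (log2). The members' median SD in adipose tissue, 0.49, was 0.44 with a pseudocount of 1, 0.40 with the median absolute deviation, 0.44 without L140 and L142, and 0.45 to 0.51 with 1 library left out. Few counts limit what can be said of members below 1 CPM, 40 of 61 in heart.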
